A study of Mus musculus with 15 samples.

Results

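The genes described here are 10 markers and regulators of the endothelial and blood lineages: the transcription factors Etv2, Tal1, Lmo2, Fli1 and Erg, the receptors Kdr and Tie1, and the surface genes Emcn, Cdh5 and Pecam1. They were chosen by name, and all 10 were found among the 18193 genes with a probe set of their own on the array, with 13 probe sets. Each gene is represented by the probe set with the highest mean over all arrays, and the other probe sets of Fli1, Cdh5 and Erg served as a check. Values are signal intensities on a linear scale, in arbitrary units, and differences are on the log2(signal + 12.6) scale. The constant damps the noise of dim probe sets and understates their changes. Signals of different probe sets are not comparable, so each gene is compared only with itself.

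RNA was measured on 15 Affymetrix mouse arrays, 3 biological replicates in each of 5 groups. Undifferentiated ES cells (day 0; line E14, strain 129P2) were not sorted and grew in serum with LIF and the 2i inhibitors CHIRON99021 and PD0325901, on inactivated embryonic fibroblast feeders, and a passage without feeders preceded differentiation. The other 4 groups were all differentiated without serum, first with BMP4 (10 ng/ml, 2 days) and thereafter with 0.5% DMSO and 0.1 μM LDN193189, an inhibitor of BMP receptors. RDL medium also contained Rspo3, which enhances Wnt signalling, at 10 ng/ml, and CDL medium contained 1 μM CHIRON99021, which blocks GSK3, in its place. At day 4, E14 cells positive for the Msgn1 reporter Msgn1-repV were taken. At day 6, cells of line CK35 (strain 129Sv) positive for Pax3-GFP were taken. Day 6 therefore differs from day 4 in line, strain and reporter as well as in time, and these cannot be told apart. The treatment labels of 3 groups end the inhibitor's number differently (LDN193191 or LDN193193), whereas the protocol names LDN193189 for all.

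Endothelial and blood cells arise from mesoderm that carries Kdr, the receptor for VEGF. The ETS factor Etv2, together with Tal1 and its partner Lmo2, starts their program, and Fli1 and Erg, also ETS factors, maintain it in endothelium. BMP signalling favours this fate, and paraxial mesoderm, the source of somites, is the fate that the culture was designed for. Some of the genes have other sites of expression: Pecam1 is a known surface protein of ES cells, and Kdr and Fli1 are found in mesenchyme outside vessels.

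The 10 genes fell into 4 patterns. Fli1, Kdr and Emcn were highest in RDL cells at day 6, above CDL cells of the same day. Lmo2 was highest at day 4 in both media and at day 6 was lower in RDL than in CDL. Pecam1 and, to a smaller extent, Etv2 were highest in ES cells. Cdh5, Tal1, Tie1 and Erg were dim in every group. A gene was tested where its signal exceeded the array median on at least 3 arrays, and 6 of the 10 did so. For Fli1 and Emcn those 3 arrays were the RDL day 6 arrays, and for Pecam1 they were the ES arrays, so these 3 genes could only enter the test by being high in that group.

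**Figure D1:**
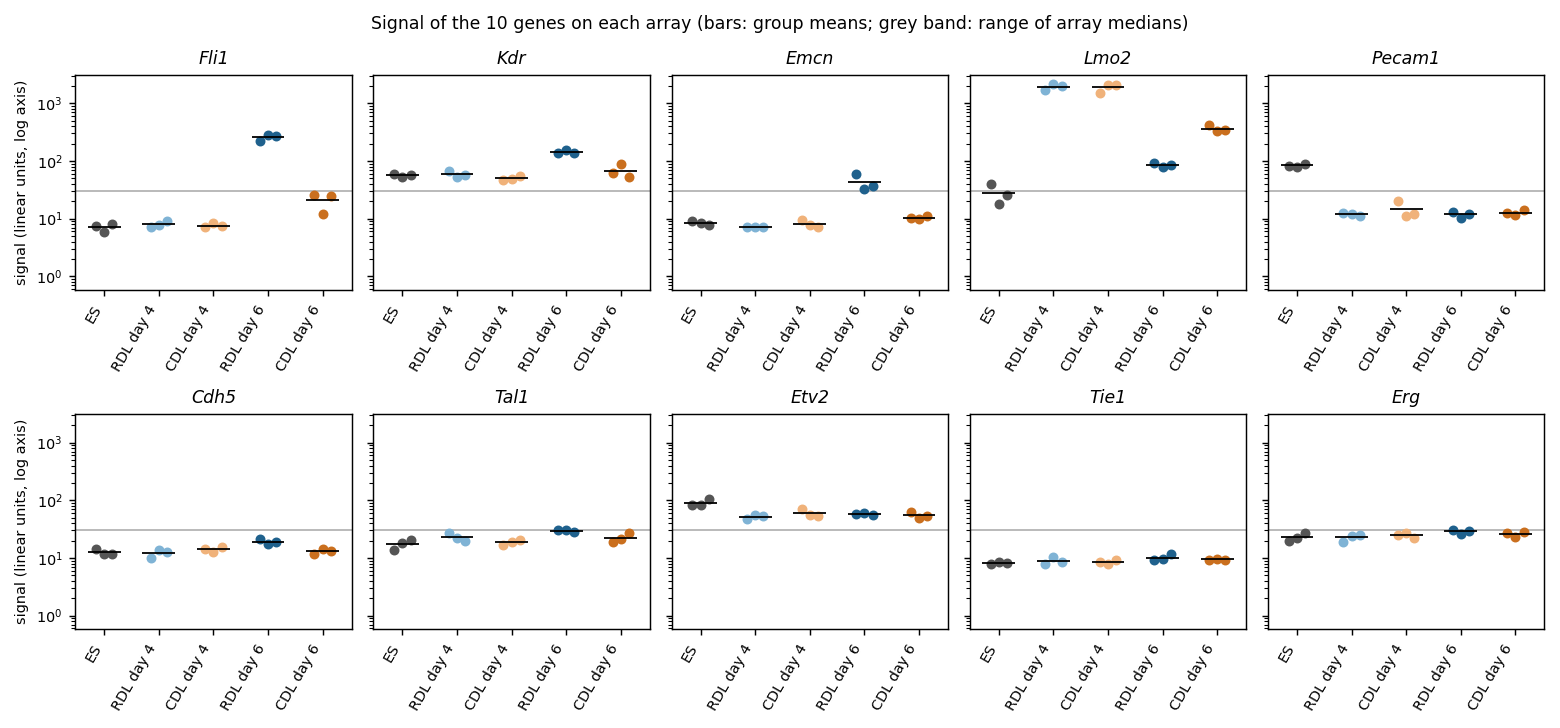
Signal (log axis) of each of the 10 genes on each of the 15 arrays by group, with bars at the group means and a grey band at the range of array medians, 29.4 to 31.2. Fli1, Kdr and Emcn stand highest in RDL day 6, Lmo2 at day 4 and Pecam1 in ES cells, while Cdh5, Tie1 and Erg stay at or below the band on all arrays.

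The arrays were closely alike in scale, with upper quartiles between 119 and 135, and their number limits the precision. CDL day 4 replicate 1 carried 20.7% (median) of ES-cell signal over 15 probe sets (above 1000 on all ES arrays, below 50 on the other 11 sorted arrays). RDL day 6 replicate 1 correlated least with its own group across genes (mean r = 0.978). Results that rest on these arrays are given without them where that matters. The sort reporters followed their labels: Msgn1 averaged 196 (RDL) and 337 (CDL) at day 4 against 29.1 in ES cells, and Pax3 averaged 303 (RDL) and 523 (CDL) at day 6 against 58.9. In samples of many cells, fewer cells of a type and less RNA per cell cannot be told apart, and this holds for every gene below.

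Promoter sequence from RefSeq (build GRCm38.p6) was found for 6 of the 10 genes. Those of Kdr and Emcn are shown because these genes rose together in RDL cells at day 6 and because ETS factors, the family of Fli1, are known to act on vascular genes. Each line gives the 250 bases before the start of transcription, 5′ to 3′ on the strand of the gene, with capitals marking the ETS core GGAA on either strand (TTCC on the opposite one).
Kdr, chr5:75978456-75978705, minus strand: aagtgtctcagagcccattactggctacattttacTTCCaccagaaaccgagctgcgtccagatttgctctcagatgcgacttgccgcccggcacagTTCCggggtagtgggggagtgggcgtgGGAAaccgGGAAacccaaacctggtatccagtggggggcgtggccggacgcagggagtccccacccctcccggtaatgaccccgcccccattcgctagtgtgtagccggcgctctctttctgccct
Emcn, chr3:137340828-137341077, plus strand: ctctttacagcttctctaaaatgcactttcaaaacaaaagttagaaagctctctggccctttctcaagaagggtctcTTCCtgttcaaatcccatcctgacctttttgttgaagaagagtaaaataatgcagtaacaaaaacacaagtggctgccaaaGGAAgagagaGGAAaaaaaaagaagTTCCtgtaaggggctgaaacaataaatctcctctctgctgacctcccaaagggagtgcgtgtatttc
Both windows held 4 ETS cores, and 93.4% of 32851 promoter windows of this length held at least 1. The share of windows with 4 or more was not counted, so whether 4 is unusual is not known. The E-box CANNTG, which can be bound by Tal1, occurred 1 time in each, and in 66.2% of all windows. The letters GATA occurred 1 time in the Kdr window and were not in that of Emcn, against 53.6% of all windows. The TCF/LEF letters CTTTGA of the Wnt pathway were in neither window and in 13.8% of all. All 4 searches covered both strands, and a match is a description of the letters, not a site.

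Etv2, the ETS factor at the head of the endothelial and blood program, was highest in ES cells. Its signals there were 84.5, 83.8 and 106. In RDL at day 4 they were 48.0, 55.5 and 52.4, and in CDL at day 4 they were 70.4, 56.2 and 53.2. At day 6 they were 58.2, 61.4 and 55.3 in RDL and 61.9, 50.1 and 52.8 in CDL. The ES arrays lay above all 12 others, and the 4 differentiated groups overlapped. Relative to ES cells Etv2 was lower by limma, with p adjusted over all 12400 genes tested, in RDL day 4 (-0.68 ± 0.11 SE, adjusted p = 6.87e-05), CDL day 4 (-0.52 ± 0.11, adjusted p = 0.000855), RDL day 6 (-0.55 ± 0.11, adjusted p = 0.000475) and CDL day 6 (-0.62 ± 0.11, adjusted p = 0.000153). The highest differentiated value, 70.4, was that of CDL day 4 replicate 1, the array with 20.7% of the ES signal, and the part of that share in it was not tested.

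Tal1, the helix-loop-helix factor needed for the first blood cells, averaged 17.6 ± 3.48 (SD, n = 3 here and below) in ES cells. At day 4 its mean was 23.0 ± 3.56 (RDL) and 18.8 ± 1.86 (CDL), and at day 6 it was 29.7 ± 1.54 (RDL) and 22.4 ± 4.08 (CDL). Only 1 array, RDL day 6 replicate 2 at 30.9, was above its median, so the gene was not tested. With no filter on dim genes, RDL day 6 was above ES cells by 0.49 ± 0.10 (limma, adjusted p = 0.000398 over 18193 genes, of which 47.1% were called). Its difference between the media at day 6 was -0.28 ± 0.10 (adjusted p = 0.120).

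Lmo2, the LIM-domain partner of Tal1, had the widest range of the 10 genes. In ES cells its signals were 40.4, 17.7 and 25.5. At day 4 they were 1687, 2133 and 1983 in RDL and 1496, 2059 and 2090 in CDL. At day 6 they were 92.4, 79.4 and 84.5 in RDL and 418, 326 and 346 in CDL. The groups at day 4 overlapped each other, and every other pair of groups was separate, in the order day 4, CDL day 6, RDL day 6 and ES cells. Day 4 was above ES cells by 5.62 ± 0.18 in RDL (adjusted p = 8.41e-13) and by 5.57 ± 0.18 in CDL (adjusted p = 9.72e-13), and 1 of the 3 ES arrays was above its median.

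From day 4 to day 6 Lmo2 changed by -4.31 ± 0.18 in RDL (adjusted p = 3.74e-11) and by -2.32 ± 0.18 in CDL (adjusted p = 5.79e-08). The media did not differ past the threshold at day 4 (-0.05 ± 0.18, adjusted p = 0.952). At day 6 the mean in CDL was 4.25 times that in RDL (1.93 ± 0.18, adjusted p = 3.84e-06). The difference between media changed between the days by 1.98 ± 0.26 (interaction, adjusted p = 0.000172). CDL day 4 replicate 1 was the lowest of the 6 day 4 arrays at 1496.

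Fli1, the ETS factor of endothelium, platelets and their precursors, stood out in RDL cells at day 6. Its signals were 7.40, 5.88 and 8.08 in ES cells, 7.15, 7.80 and 9.19 in RDL at day 4 and 7.15, 8.25 and 7.42 in CDL at day 4. At day 6 they were 219, 281 and 270 in RDL and 25.6, 12.2 and 24.4 in CDL. RDL day 6 lay above every other array, CDL day 6 lay above ES and day 4 arrays but below its array medians, and ES and day 4 groups overlapped. The difference of CDL against RDL at day 6 was -3.03 ± 0.13 (adjusted p = 1.95e-09), and no ratio is given because CDL lay below the array medians.

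Fli1 rose from day 4 to day 6 by 3.70 ± 0.13 in RDL (adjusted p = 6.65e-12) and by 0.70 ± 0.13 in CDL (adjusted p = 0.000702). The media differed by -0.03 ± 0.13 at day 4 (adjusted p = 0.961), and the interaction was -3.00 ± 0.19 (adjusted p = 2.66e-07). The other Fli1 probe set gave 73.2, 81.7 and 78.6 in RDL at day 6, 11.9, 16.9 and 13.7 in CDL at day 6, and no more than 13.7 on the other 9 arrays. On it the medium difference at day 6 was smaller (-1.76 ± 0.07, adjusted p = 8.64e-10) and so was the interaction (-1.59 ± 0.10, adjusted p = 4.17e-07). It also called RDL day 4 above ES cells (0.21 ± 0.07, adjusted p = 0.0203), where the main probe set gave 0.07 ± 0.13 (adjusted p = 0.701). On the other probe set the rise from day 4 to day 6 was 1.85 ± 0.07 in RDL (adjusted p = 1.73e-11). In CDL that rise was 0.26 ± 0.07 (adjusted p = 0.00966), and CDL day 6 overlapped RDL day 4 there.

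Erg, the close relative of Fli1, did not share this pattern. Its signals ran from 18.7 to 30.6 over the 15 arrays, all below the array medians, and ES cells averaged 22.9 ± 3.53. Its means were 22.7 ± 3.40 (RDL) and 24.7 ± 2.36 (CDL) at day 4, then 28.8 ± 2.24 (RDL) and 26.3 ± 2.58 (CDL) at day 6. With no filter, RDL day 6 against ES cells gave 0.23 ± 0.09 (adjusted p = 0.0469), and the other Erg probe set gave 0.07 ± 0.06 (adjusted p = 0.436). The media differed by -0.09 ± 0.09 at day 6 (adjusted p = 0.715).

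Kdr, the main VEGF receptor of endothelium, was above the array median on all 15 arrays. Its signals were 59.3, 52.9 and 56.2 in ES cells. At day 4 they were 68.2, 51.7 and 56.8 in RDL and 47.4, 49.6 and 55.5 in CDL. At day 6 they were 140, 157 and 139 in RDL and 63.0, 88.3 and 53.1 in CDL. RDL day 6 lay above all other arrays, and the other 4 groups overlapped. The mean in RDL at day 6 was 2.13 times that in CDL (CDL against RDL -0.99 ± 0.13, adjusted p = 0.000172).

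From day 4 to day 6 Kdr rose in RDL by 1.15 ± 0.13 (adjusted p = 7.39e-06), and in CDL its difference was 0.33 ± 0.13 (adjusted p = 0.0665). Without CDL day 6 replicate 3, the lowest of its group, the latter was 0.46 (adjusted p = 0.0166). CDL day 6 against ES cells then moved from 0.21 (adjusted p = 0.189) to 0.35 (adjusted p = 0.0365). Without CDL day 6 replicate 2, the highest of its group at 88.3, these differences fell to 0.15 and 0.04, neither past the threshold. Whether Kdr was called in CDL at day 6 therefore depended on which array was left out. The interaction was -0.82 ± 0.19 (adjusted p = 0.0169). It was -0.75 without RDL day 4 replicate 2 (adjusted p = 0.0552), the single array whose removal ended this call. Kdr at day 4 did not differ past the threshold from ES cells in RDL (0.05 ± 0.13, adjusted p = 0.767) or CDL (-0.12 ± 0.13, adjusted p = 0.497).

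Tie1, an orphan receptor tyrosine kinase of endothelium that acts with Tek, had signals between 7.71 and 11.8 on all 15 arrays, within the lowest 23.1% of probe sets on each. Its mean was 8.25 ± 0.420 in ES cells, while day 4 gave 8.95 ± 1.46 (RDL) and 8.38 ± 0.681 (CDL) and day 6 gave 10.1 ± 1.51 (RDL) and 9.45 ± 0.277 (CDL). With no filter, limma gave 0.12 ± 0.05 for RDL day 6 against ES cells (adjusted p = 0.0503).

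Emcn, endomucin, a sialoglycoprotein of the venous and capillary surface, was likewise highest in RDL cells at day 6. Its signals were 9.01, 8.37 and 7.88 in ES cells, 7.20, 7.31 and 7.20 in RDL at day 4 and 9.31, 7.89 and 7.21 in CDL at day 4. At day 6 they were 58.8, 32.9 and 36.3 in RDL and 10.3, 10.0 and 10.9 in CDL. RDL day 6 lay above all others, and CDL day 6 lay just above the remaining groups, which lay within the lowest 15.9% of probe sets on their arrays. The means at day 6 were 42.7 ± 14.1 in RDL and 10.4 ± 0.472 in CDL, and no ratio is given because CDL lay below the array medians.

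For Emcn the medium difference at day 6 was -1.23 ± 0.12 (adjusted p = 4.58e-06) and the rise from day 4 to day 6 in RDL was 1.45 ± 0.12 (adjusted p = 1.12e-07). In CDL the same step was 0.15 ± 0.12 (adjusted p = 0.322), and the interaction was -1.30 ± 0.17 (adjusted p = 0.000159). The highest value, 58.8, came from RDL day 6 replicate 1. Without it and CDL day 4 replicate 1, the other array that stood apart, the medium difference was -1.03 (adjusted p = 1.86e-08). The CDL step from day 4 to day 6 was then 0.19 (adjusted p = 0.0209) and CDL day 6 against ES cells 0.13 (adjusted p = 0.0491).

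Cdh5, VE-cadherin of the endothelial junction, was below the array median on all 15 arrays. Its signals were highest in RDL at day 6, at 21.7, 17.3 and 18.6, against 11.9, 14.5 and 13.0 in CDL at day 6 and 9.83 to 15.5 on the other 9 arrays. With no filter this gave -0.31 ± 0.07 for CDL against RDL at day 6 (adjusted p = 0.0120, where 5.36% of 18193 genes were called). The other Cdh5 probe set, with 11.2, 8.20 and 9.51 in RDL and 9.95, 10.0 and 10.1 in CDL, gave 0.02 ± 0.04 (adjusted p = 0.868). The 2 probe sets therefore disagreed, both at low signal.

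Pecam1, an adhesion molecule of endothelium and platelets that ES cells also carry, was well above the other groups in ES cells. Its signals were 83.4, 79.2 and 88.1 in ES cells, 12.6, 12.1 and 11.3 in RDL at day 4 and 20.4, 11.2 and 12.2 in CDL at day 4. At day 6 they were 13.2, 10.5 and 12.2 in RDL and 12.5, 11.7 and 13.9 in CDL. All 12 differentiated arrays lay below the ES arrays and, apart from 1, within 10.5 to 13.9. That 1 was CDL day 4 replicate 1 at 20.4, and the part of its 20.7% share of ES signal in this value was not tested. Relative to ES cells the difference was -1.97 ± 0.10 for RDL day 4 (adjusted p = 1.79e-10), -1.84 ± 0.10 for CDL day 4 (adjusted p = 4.55e-10), -1.97 ± 0.10 for RDL day 6 (adjusted p = 1.26e-10) and -1.93 ± 0.10 for CDL day 6 (adjusted p = 1.89e-10). The media differed by 0.13 ± 0.10 at day 4 (adjusted p = 0.640) and 0.04 ± 0.10 at day 6 (adjusted p = 0.884).

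Counted together, the tested genes are set here against all 12400 genes tested. RDL day 4 against ES cells called 3 of 6 (57.1% of all genes were called), CDL day 4 against ES cells 3 of 6 (56.2%), RDL day 6 against ES cells 6 of 6 (61.6%) and CDL day 6 against ES cells 4 of 6 (61.0%). All 6 were called in RDL day 6 against ES cells, but Fli1, Emcn and Pecam1 entered the test only through RDL day 6 or ES arrays and had to differ there. The other 3 shares against ES cells lay within 1 gene of the background. From day 4 to day 6 the calls were 4 of 6 in RDL (31.0% of all genes) and 2 of 6 in CDL (39.4%). CDL against RDL called 4 of 6 at day 6, where 7.61% of all genes were called, and the interaction called 4 of 6 against 5.39%. Fli1 and Emcn are 2 of the 4 called in each of these, and also in the RDL step from day 4 to day 6. Both entered the test only through the RDL day 6 arrays, so none of these counts can be read against the background. Kdr and Lmo2 entered through other arrays as well. At day 4 limma called 0 of 6 between the media, also 0 of 6 at an unadjusted p below 0.05, where 4.41% of all genes were called. These comparisons share arrays, so they are not independent of each other.

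The number of all genes called between the media at day 6 depended on RDL day 6 replicate 1. It was 944 with all arrays and 1512 without that array, and the interaction went from 668 to 1216. The calls at day 4 went from 547 to 353 without RDL day 4 replicate 1 and to 341 without replicate 2. The 4 members were called between the media at day 6 whichever array was left out. These fits kept the genes filtered on all 15 arrays, which Fli1 and Emcn had passed only through RDL day 6.

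**Figure D2:**
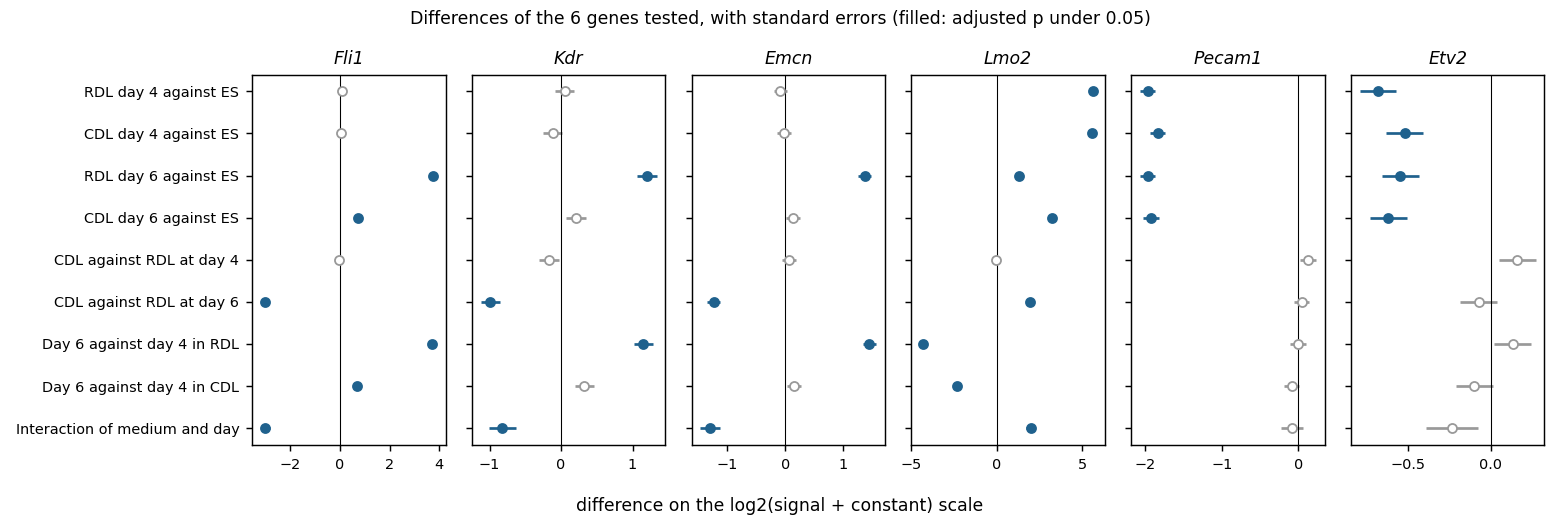
Differences on the log2(signal + 12.6) scale with standard errors of limma's fit for the 6 genes tested (panels, each with its own axis) in 9 comparisons (rows), filled where the adjusted p is under 0.05. For CDL against RDL at day 6 Fli1 (-3.03), Kdr (-0.99) and Emcn (-1.23) lie left of 0 and Lmo2 (1.93) lies right of it, and at day 4 none of the 6 is filled.

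Other genes of the vascular and blood lineages were taken by role from lists of known genes. Among the ligands, 7 of 9 with a probe set were tested. Between the media at day 6, 0 were higher and 2 lower in CDL, where 7.61% of all genes were called. The median was -0.03 against 0.00 over all genes. Angpt1, the angiopoietin that activates Tek, had signals of 298, 166 and 220 in RDL and 76.2, 42.4 and 93.2 in CDL at day 6 (-1.55 ± 0.22, adjusted p = 0.000265). It rose from day 4 to day 6 in both RDL (2.68 ± 0.22, adjusted p = 1.43e-07) and CDL (1.80 ± 0.22, adjusted p = 9.96e-06). Vegfc, a ligand of lymphatic endothelium, was the other gene called (-0.57 ± 0.15, adjusted p = 0.0253). Pgf, a ligand of Flt1, did not differ past the threshold between the media (-0.07 at day 6) and was above ES cells in all 4 groups, by 0.89 to 1.15. Vegfb, a ligand of Flt1, was above ES cells in CDL at day 6 (0.63 ± 0.20, adjusted p = 0.0137) and not past the threshold in the other groups. Vegfa, the ligand of Kdr, added after its values were seen, had mean signals of 112 in RDL and 130 in CDL at day 6 (0.21, not past the threshold).

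Of 25 endothelial receptor and surface genes, 17 were tested. Among the 17, Icam2 exceeded the array median only on the RDL day 6 arrays, and Tek only on the ES arrays. Each entered the test only by being high there, so counts that hold its calls against that group cannot be read against the background. From day 4 to day 6, 10 rose and 1 fell in RDL (median 0.34 against -0.02 over all genes), and 6 rose and 1 fell in CDL (median 0.05 against -0.02). At day 6, 5 were lower and 1 higher in CDL than in RDL (median -0.15 against 0.00). Of all genes, 31.0% (RDL) and 39.4% (CDL) were called between the days, and 7.61% between the media at day 6. Flt1, a VEGF receptor that binds ligand tightly and signals weakly, had signals of 57.7, 85.0 and 73.2 in RDL and 38.1, 39.2 and 36.3 in CDL (-0.73 ± 0.11, adjusted p = 0.000361). Plvap, which forms the diaphragms of endothelial pores, had 57.3, 80.3 and 72.4 in RDL and 29.8, 39.2 and 34.9 in CDL (-0.80 ± 0.12, adjusted p = 0.000333). For both genes the RDL and CDL arrays were separate. Thbd, thrombomodulin, an anticoagulant receptor of endothelium, named after its values were seen, averaged 63.7 ± 25.8 in RDL and 31.3 ± 1.61 in CDL, with all RDL arrays above those of CDL (-0.75 ± 0.17, adjusted p = 0.0101). Nrp1, a co-receptor of VEGF and semaphorins, rose in both media and was lower in CDL at day 4 (-1.02 ± 0.22, adjusted p = 0.0119) and at day 6 (-0.77 ± 0.22, adjusted p = 0.0412).

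Ramp2, the partner of the adrenomedullin receptor, was higher in CDL at day 6, with signals of 791, 877 and 1054 against 366, 367 and 362 in RDL (1.27 ± 0.11, adjusted p = 1.39e-06). Tek, the angiopoietin receptor, was highest in ES cells (69.3, 79.4 and 77.2) and at day 6 had 27.5, 18.6 and 23.1 in RDL and 15.8, 15.1 and 14.3 in CDL. Nrp2, a semaphorin and VEGFC co-receptor, differed by 0.05 between the media at day 6 and was not called. Of the 25 genes, 11 were below the array median on all 3 arrays of RDL at day 6, and 11 on those of CDL. Cd34, Vwf, Clec14a, Stab2 and Lyve1, genes of blood or lymphatic vessels singled out after their values were seen, were among them in both media.

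Of 12 endothelial transcription factors with a probe set, 9 were tested. From day 4 to day 6, 5 rose and 2 fell in RDL, and 4 rose and 3 fell in CDL (medians 0.36 and 0.24 against -0.02 in each over all genes). At day 6, 0 were higher and 2 lower in CDL (median -0.21 against 0.00), and without RDL day 6 replicate 1 and CDL day 4 replicate 1 the count was 4 lower. With all arrays these 3 comparisons called 31.0%, 39.4% and 7.61% of all genes. Sox17, of arterial endothelium and endoderm, had signals of 49.7, 117 and 120 in RDL and 25.4, 26.6 and 26.9 in CDL at day 6 (-1.39 ± 0.19, adjusted p = 0.000209), with the lowest RDL value on replicate 1. Sox17 exceeded the array median only on the RDL day 6 arrays, so it entered the test only by being high there. Its calls, and the counts of this list that hold them, cannot be read against the background. Mecom, a zinc-finger factor of blood stem cells and arteries, had 851, 731 and 751 in RDL and 259, 271 and 290 in CDL (-1.46 ± 0.14, adjusted p = 5.36e-06). Mecom was already lower in CDL at day 4 (-0.97 ± 0.14, adjusted p = 0.000658). Ets1 and Elk3, ETS-domain factors of endothelium and mesenchyme, rose by 2.58 and 1.39 in RDL and by 2.36 and 1.30 in CDL, and their differences between the media at day 6 were -0.43 and 0.04, neither past the threshold.

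Of 12 blood transcription factors, 8 were tested. From day 4 to day 6, 0 were called by limma in either medium (0 at an unadjusted p below 0.05 in RDL and 1 in CDL). Between the media, 0 were called at day 4 and 0 at day 6, also 0 and 0 at an unadjusted p below 0.05. Of all genes, 31.0% (RDL) and 39.4% (CDL) were called between the days, and 4.41% (day 4) and 7.61% (day 6) between the media. Relative to ES cells 0 rose and 4 fell in RDL at both days and in CDL at day 4, and 0 rose and 3 fell in CDL at day 6, where 56.2% to 61.6% of all genes were called. Without RDL day 6 replicate 1 and CDL day 4 replicate 1 the count for RDL day 6 was 6 fallen. Myb, a regulator of blood progenitors, had a signal that averaged 79.2 in ES cells against 19.7 to 24.6 in the other groups. Nfe2, of red cells and platelets, averaged 58.9 in ES cells against 15.5 to 17.8 elsewhere. Myb and Nfe2 exceeded the array median only on ES arrays, so they entered the test only through that group and had to fall. The counts of falls therefore cannot be read against the background. Klf1, a red cell factor, and Spi1, a factor of myeloid cells, also fell in RDL at day 6 (-0.55 and -0.31). Gata1, Gfi1, Lyl1 and Ikzf1 were below the array median on all 15 arrays.

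Of 11 blood surface and red cell genes with a probe set, 4 were tested. Kit, the stem cell factor receptor, had signals of 1387, 1252 and 1268 in ES cells and 30.2 to 58.8 on the sorted arrays except CDL day 4 replicate 1, at 314. Cd44, an adhesion receptor of many cell types, was above ES cells in all 4 groups by 3.03 to 3.75. Epor, the erythropoietin receptor, was above ES cells in CDL at day 4 (0.38) and RDL at day 6 (0.26). The leukocyte gene Ptprc and the globin genes Hba-x, Hbb-y and Hba-a1 were below the array median on all 15 arrays. Hbb-bh1, an embryonic globin gene, was above it on 1 array, RDL day 6 replicate 1, at 34.1.

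**Figure D3:**
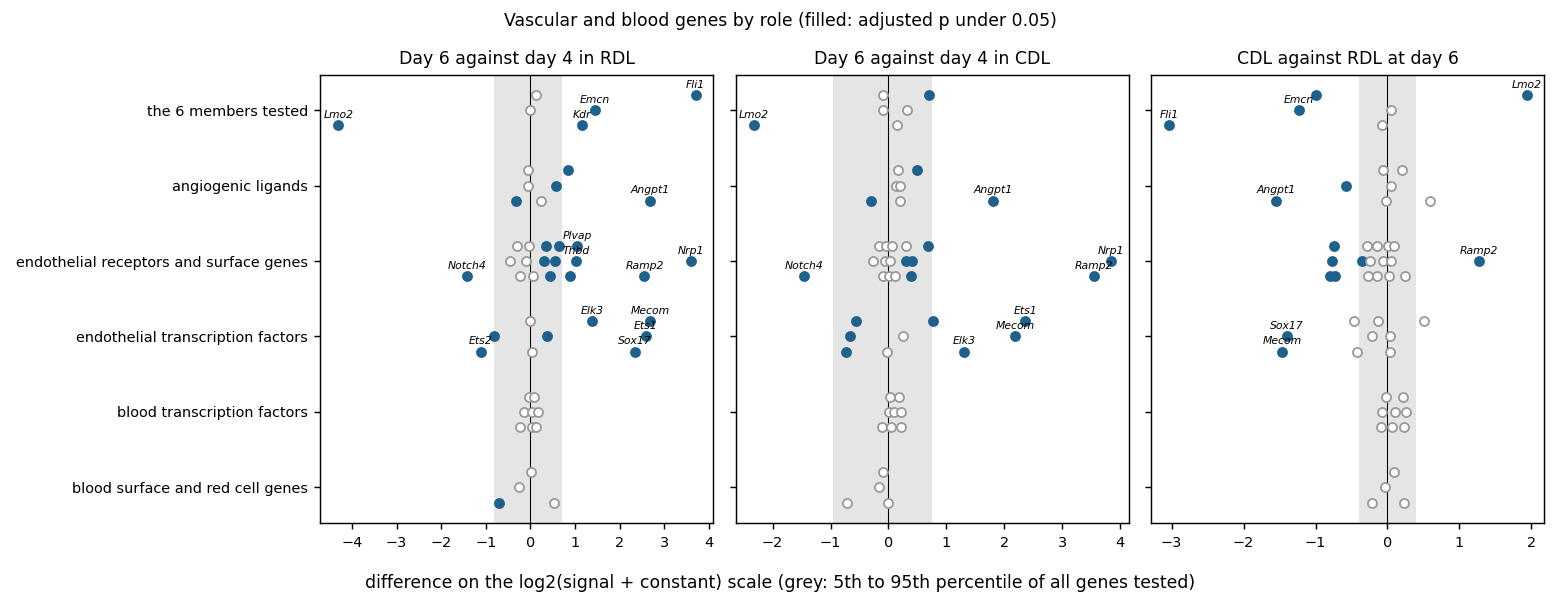
Differences on the log2(signal + 12.6) scale of the tested genes by role (rows) for day 6 against day 4 in RDL and in CDL and for CDL against RDL at day 6, filled where the adjusted p is under 0.05, with the 5th to 95th percentile of all genes tested in grey. In the panel for CDL against RDL at day 6, Fli1 (-3.03), Emcn (-1.23), Angpt1 (-1.55), Mecom (-1.46) and Sox17 (-1.39) lie left of the grey band, Lmo2 (1.93) and Ramp2 (1.27) lie right of it, and no gene of the blood lists is filled.

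Markers of other cell types moved with some of these results. Of 7 feeder fibroblast markers, all tested, 6 rose and 1 fell from day 4 to day 6 in RDL, and 5 rose and 1 fell in CDL, where 31.0% and 39.4% of all genes were called. Their median differences were 1.65 in RDL and 1.26 in CDL, against -0.02 in each over all genes. Their summed signal was 179 to 200 in ES cells, 690 to 784 (RDL) and 816 to 1034 (CDL) at day 4, then 7738 to 10086 (RDL) and 5192 to 7064 (CDL) at day 6. At day 6, 4 were lower in CDL than in RDL and 0 higher by limma, which called 7.61% of all genes. The median of the 7 was -0.66 against 0.00 over all genes. Without RDL day 6 replicate 1 and CDL day 4 replicate 1 the counts were 5 lower and 1 higher. Among the 4 was Lum, a matrix proteoglycan, with signals of 269, 199 and 205 in RDL and 38.2, 26.3 and 51.7 in CDL (-2.22 ± 0.14, adjusted p = 9.89e-08). Thy1, another marker of that list, was below the median on all RDL and CDL day 6 arrays, and none of the 7 was at 0. Postn exceeded the array median only on the RDL day 6 arrays, so it entered the test only by being high there. The summed signal of the 7 was lowest in ES cells, and whether any of it came from feeder cells was not tested. The part of cells with these genes in the higher Fli1, Kdr and Emcn of RDL day 6 was not tested.

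Of 9 paraxial mesoderm markers, all tested, 4 were higher and 0 lower in CDL at day 6 by limma, which called 7.61% of all genes. Their median difference was 0.67 against 0.00 over all genes. Among the 4 were Dll1, a Notch ligand of the presomitic mesoderm (2.14 ± 0.25, adjusted p = 4.32e-05), and Tcf15, a somite factor (1.50 ± 0.22, adjusted p = 0.000313). The summed signal of the 9 was 3496 to 5795 in RDL and 5420 to 8405 in CDL. This was the direction of Lmo2, and its part in the Lmo2 result was not tested. Of 6 lateral plate and cardiac markers tested of 9, 0 were higher and 2 lower in CDL at day 6 by limma, against the same 7.61%. Their median difference was -0.24 against 0.00 over all genes. The 2 were Gata6, of heart and endoderm (-0.97 ± 0.14, adjusted p = 0.000227), and Bmp4, a ligand of the pathway that LDN193189 blocks (-0.48 ± 0.13, adjusted p = 0.0365). The summed signal of the 9 was 459 to 472 in RDL and 337 to 381 in CDL, and Hand2, Gata4 and Tbx20 were below the array median in every group.

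Of 5 mural cell markers tested of 6, 0 were called between the media at day 6 by limma, with 1 at an unadjusted p below 0.05, and their summed signal was 4028 to 4973 in RDL and 3264 to 4252 in CDL. Of 4 macrophage markers tested of 6, 0 were called, also 0 at an unadjusted p below 0.05, and their summed signal was 167 to 177 in RDL and 181 to 199 in CDL. Of 8 pluripotency markers, 1 was higher in CDL at day 6 and 0 lower, in a comparison that called 7.61% of all genes. Their summed signal was 24695 to 25255 in ES cells and 987 to 7541 in CDL at day 4, with the highest value there far above the 747 to 951 of RDL at day 4. No marker of any list was at 0.

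For each of the 6 tested genes, the 3 genes with the most similar values over the 15 arrays were taken, by the root mean square difference between log2 values centred on each gene's mean. This is a description, and the arrays of a group share their conditions. Nearest to Fli1 were Mc2r (0.306), a melanocortin receptor, Lum (0.314) and Epha3 (0.358), an ephrin receptor, where Fli1 itself ranged over 3.99. At day 6, Mc2r had a mean signal of 240 ± 13.2 (SD, n = 3) with RDL and 44.2 ± 7.32 with CDL, against 10.8 to 13.3 in the other groups.

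Nearest to Kdr, with a range of 1.50, were Dpep1 (0.139), a dipeptidase, and the endothelial genes Flt1 (0.177) and Plvap (0.182). Dpep1 was also near Emcn (0.170), after Fibin (0.117), a secreted protein, and Alx1 (0.136), a homeobox factor of craniofacial mesenchyme, where Emcn ranged over 1.85. Nearest to Lmo2, with a range of 6.15, were Dll1 (0.422), Hoxb1 (0.491), an anterior Hox gene, and Rspo3 (0.573), which encodes the Wnt agonist also present in RDL medium. Dll1 averaged 2353 ± 166 (RDL) and 2257 ± 553 (CDL) at day 4, then 77.9 ± 30.9 (RDL) and 381 ± 128 (CDL) at day 6. Nearest to Pecam1 were Plekhd1 (0.0714), Tulp2 (0.0810) and Pzp (0.0889), and nearest to Etv2 were Ocel1 (0.0845), Ocln (0.0857), a tight junction protein, and Grhl1 (0.0903), an epithelial factor.

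**Figure D4:**
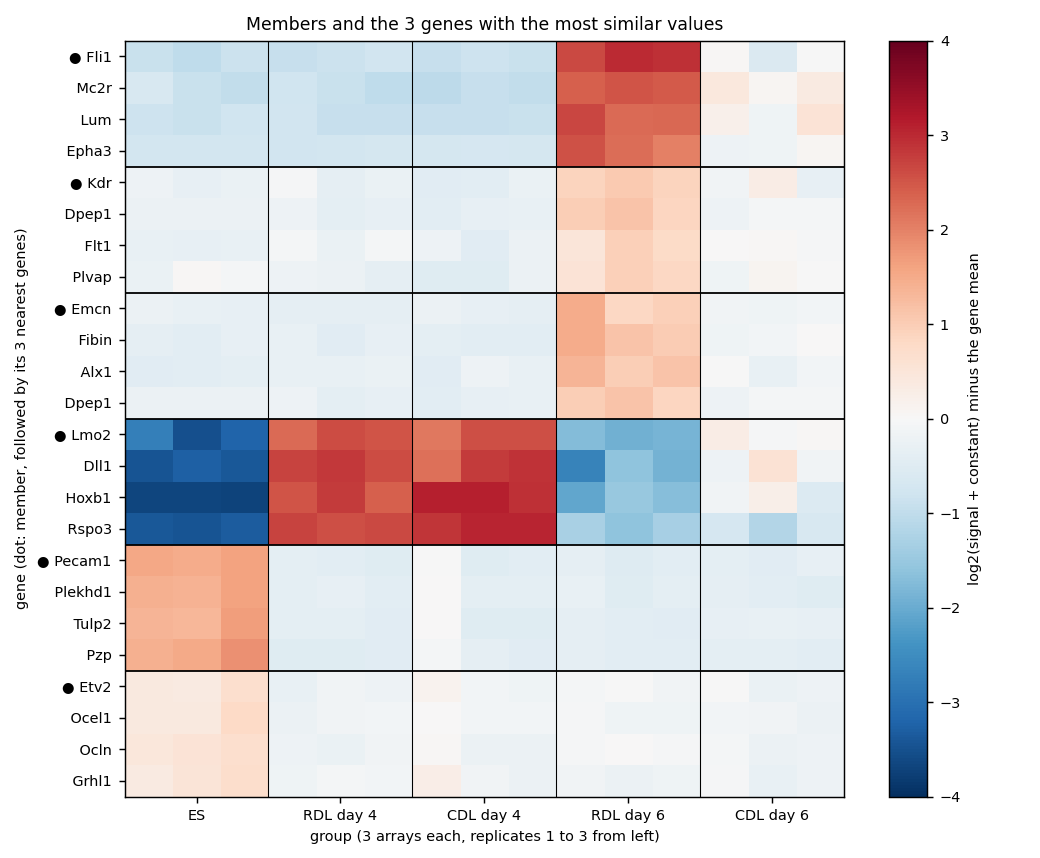
Log2(signal + 12.6) minus the gene's mean (colour) on each of the 15 arrays (columns, by group) for the 6 genes tested, each followed by its 3 nearest genes (rows). Lum follows Fli1 with high values in RDL day 6, Flt1 and Plvap follow Kdr, Dll1 follows Lmo2 with high values at day 4, and the genes near Pecam1 and Etv2 are high in ES cells.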

How the data were processed

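The authors deposited signal intensities from Affymetrix mouse arrays on a linear scale, made with MAS5 per the submitters' processing notes; its version, scaling target and background settings are not given in the sources used here. Of 45101 probe sets, 64 controls were left out. The array annotation gave 1 symbol for 34945 of the rest, several for 932 and none for 9160, and symbols can be old. Log2(signal + 12.6) was analysed, 12.6 being the median over arrays of the 25th percentile. Genes above the array median on at least 3 of 15 arrays were tested (12400, with 5793 left out as dim). One fit of limma 3.58.1 (R 4.3.3; eBayes with trend, Benjamini-Hochberg, threshold 0.05) held all 15 arrays and gave 9 comparisons. It was tested on simulated data. No arrays were identical (0 pairs). The labels call replicates biological and do not say what separates them, so p-values measure the spread between these samples.

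The members and the lists were chosen with earlier results of these data known. From each vascular and blood list, up to 4 genes with the largest difference past the threshold in any of the 9 comparisons were named, and for each member tested the 3 genes nearest to it. Markers of other cell types are given mainly as counts. Same-numbered RDL arrays of day 4 and day 6 deviated together (correlations 0.219 to 0.285), so numbers may pair them; this comes from the data, not the labels. RDL day 4 and CDL day 6, not compared here, also did (0.106 to 0.275). Weaker but positive for all 3 numbers were RDL day 4 with CDL day 4 (0.0960 to 0.244) and CDL day 4 with CDL day 6 (0.0718 to 0.139). So was CDL day 4 with RDL day 6 (0.0792 to 0.223). RDL day 6 with CDL day 6 gave 0.609, 0.588 and -0.241. Every pair with ES cells held a negative value. Alternatives were the added constant, the filter, quantile normalization, the mean of probe sets, only the groups compared, the replicate number as a block, no trend, and each array left out. Promoters are from RefSeq (GRCm38.p6).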

Additional observations from a re-analysis of the deposited data

Results flagged for a closer look

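The difference between the media depended on the day for 4 of the 6 genes tested, by limma's interaction term, which called 5.39% of all genes. Fli1 and Emcn entered the test only through the RDL day 6 arrays, so this count cannot be read against the background. For Fli1 the difference was -0.03 at day 4 and -3.03 at day 6, an interaction of -3.00 (adjusted p = 2.66e-07). For Emcn it was 0.06 and -1.23, an interaction of -1.30 (adjusted p = 0.000159). For Kdr it was -0.17 and -0.99, an interaction of -0.82 (adjusted p = 0.0169). For Lmo2 it was -0.05 and 1.93, an interaction of 1.98 (adjusted p = 0.000172), in the opposite direction. In each case the values are CDL minus RDL on the log2(signal + 12.6) scale, and the days also differ in cell line, strain and sort reporter.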

How the results depend on the processing

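Of 1359 values of single genes under the alternatives, 1353 kept their direction, where called, and their side of the threshold, 5 passed it newly, 1 no longer passed it and 0 reversed. The 1 lost was Kdr's interaction, and 4 of the 5 gained were Kdr and Emcn in CDL day 6, given above, with the other Fli1 probe set as the last. The counts of all genes called moved more, and the cause was not tested. With each array left out in turn, calls between the media ranged from 341 to 797 at day 4 and from 684 to 1512 at day 6, and interaction calls from 482 to 1216. Leaving out RDL day 6 replicate 1 and CDL day 4 replicate 1 together, chosen after seeing the data, gave 1776 calls at day 6 and 1237 for the interaction. A fit on only the groups compared, with fewer samples, gave 442 at day 6. With the replicate number as a block, calls were 1143 between the media at day 6, 634 at day 4, 798 for the interaction and 4210 and 5251 for the days in RDL and CDL. Against ES cells the block gave 7293, 7177, 7843 and 7807, and it changed no call of the 6 genes. Low signal limits Cdh5, Tal1, Tie1 and Erg, which were below or near the array median throughout.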
